A study of Mus musculus with 2 samples.

Results

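The *Etv2*-positive haemato-endothelial progenitors described here were single cells chosen from measured values: at least 2 spliced UMIs (unique molecular identifiers, each a counted RNA molecule) of *Etv2*, at least 2 of *Kdr*, fewer than 3 of *Spi1*, and under 0.5% of the spliced UMIs from the embryonic globins *Hba-x*, *Hbb-bh1* and *Hbb-y*. The rule kept 772 of 18233 cells, 438 of 8981 in the tdTom+ library and 334 of 9252 in the tdTom- library. Male embryonic stem cells that carried a constitutive tdTomato reporter at Rosa26 and, in a single clone, a frameshift of 38 base pairs in exon 4 of *Gata1* (written Gata1-/-, called Gata1- here) had been injected into C57BL/6 blastocysts. *Gata1* lies on the X chromosome, so these male cells are hemizygous for it. Cells of 6 pooled chimeric embryos were sorted by tdTomato into an injected Gata1- fraction (tdTom+, labelled E8.5) and a host fraction with intact *Gata1* (WT tdTom-, labelled E8.6), and each fraction was sequenced as 1 droplet library with 3' tags. There is thus no replicate of either fraction, and no difference between them was tested. The intervals given are exact 95% intervals and cover counting error only.

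ETV2 is an ETS-family transcription factor that is switched on briefly in mesoderm expressing the VEGF receptor KDR and is required for the formation of blood and endothelium. Its known targets include *Tal1*, *Lmo2*, *Fli1* and endothelial surface genes, and its own expression fades once endothelial cells assemble into vessels. In the E8.5 embryo such cells are known from the yolk sac, the allantois and the lateral plate of the trunk.

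The libraries held 167940767 and 157174026 spliced UMIs, with a median of 17598 and 15996 per cell, in the order tdTom+ and tdTom- that is kept for every pair of values below. They shared 18 cell barcodes, which 3 tdTom+ and 1 tdTom- members carried. The row for the tdTomato transcript held 0 UMIs in every cell and could not check the sort. *Gata1*, the targeted gene, was counted 3 times in tdTom+ members (0.327 CPM, or UMIs per 1000000 spliced UMIs, 0.0675 to 0.956) and 22 times in tdTom- members (3.30, 2.07 to 5.00). The neural cells of the same libraries held 2.01 and 5.04 CPM, no less than the members, so these counts were read as background. The 3' tags also lie downstream of the mutated bases, so *Gata1* checks the labels of these cells little.

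Members made up 4.88% of the tdTom+ library (4.44 to 5.34) and 3.61% of the tdTom- library (3.24 to 4.01). Among cells under the globin limit the shares were 5.68% of 7718 (5.17 to 6.22) and 4.47% of 7464 cells (4.02 to 4.97). How fully this limit leaves out erythroid cells, or spares other cells, was not checked in either library. Neural cells held 573 and 3009 CPM of these globins, so the limit lies nearer to the background in tdTom-. With every cell thinned to 5000 UMIs the shares were 2.03% (1.74 to 2.34) and 1.82% (1.55 to 2.12), and these intervals overlapped. Members had a median of 19385.5 and 18835.5 spliced UMIs and 4790.5 and 4724.5 genes, and a mitochondrial share of 1.90% and 2.01%. Scrublet called 19 (4.34%) and 23 (6.89%) of them doublets, against 4.39% and 5.60% of the whole libraries. They were kept.

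*Etv2* ranged from 2 to 173 UMIs per tdTom+ member with a median of 10, and from 2 to 118 with a median of 12 in tdTom- members. *Kdr* had medians of 7 and 8. Just inside the limits lay 69 and 44 members with 2 *Etv2* UMIs and 40 and 27 with 2 *Kdr* UMIs. Just outside lay 146 and 84 cells with 1 *Etv2* UMI and 54 and 24 with 1 *Kdr* UMI that met every other limit. The *Spi1* limit removed 29 and 6 cells and the globin limit 6 and 14. *Spi1*, which encodes the myeloid factor PU.1, was at 0 in 420 and 331 of the members. The highest globin share inside the limit was 0.135% and 0.411%, and the lowest outside it 0.502% and 0.568%. Neural cells gave the background of the rule. Of 468 and 841 neural cells (*Sox2* with *Sox1* or *Pax6*, median 18796 and 17976 UMIs), 1.71% and 1.55% held 2 or more *Etv2* UMIs, and 3 (0.641%) and 9 (1.07%) met the whole rule, to be set beside the members' 4.88% and 3.61% of all cells.

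Members were set against 2 groups that met the same *Kdr*, *Spi1* and globin limits but held 0 *Etv2* UMIs. Etv2-negative endothelium had at least 2 UMIs of *Cdh5*, which encodes the endothelial adherens-junction protein VE-cadherin (123 and 92 cells, median 16145 and 13504 UMIs). Kdr-positive mesoderm had 0 UMIs of *Cdh5* and of the junction gene *Pecam1* (262 and 200 cells, median 17348.5 and 16424.5 UMIs). For each level, the spliced UMIs of a gene were added up across a group within 1 library and scaled to a total of 1000000, so levels compare a single gene between groups. A gene counted as measured, or tested for size, where members and group together held at least 100 of its UMIs in each library. It is called higher or lower where its levels were at least 2-fold apart in the same direction in both libraries.

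The label's markers that the rule did not use were *Gja4* and *Rasip1*. The label was chosen with earlier results of these data known, so these markers describe it and are no independent check. They bear on its endothelial part only. *Gja4*, which encodes the arterial gap-junction protein connexin 37, stood at 78.2 CPM in tdTom+ members (72.6 to 84.1) and 67.7 in tdTom- members (61.6 to 74.2), against 0.201 and 1.14 in Kdr-positive mesoderm. *Gja4* was found in 42.2% and 36.2% of members, and in 0.427% and 0.476% of neural cells. *Rasip1*, which encodes a RAS-interacting protein needed for lumen formation, stood at 138 (131 to 146) and 137 (129 to 146), against 3.82 and 4.57 in the mesoderm and 300.0 and 305 in the endothelium. *Rasip1* was found in 62.8% and 56.3% of members and 10.3% and 7.49% of neural cells. Both markers stood above the *Kdr*-positive mesoderm in both fractions. That group was defined without *Cdh5*, *Pecam1* and *Etv2*, and *Rasip1* goes with *Cdh5* within the members (269 and 313 in cells with a *Cdh5* UMI, 71.9 and 69.3 in the others), so the gap follows in part from the definition. *Gja4* had no common order against the endothelium, which held 45.5 and 96.5 CPM.

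**Figure D1:**
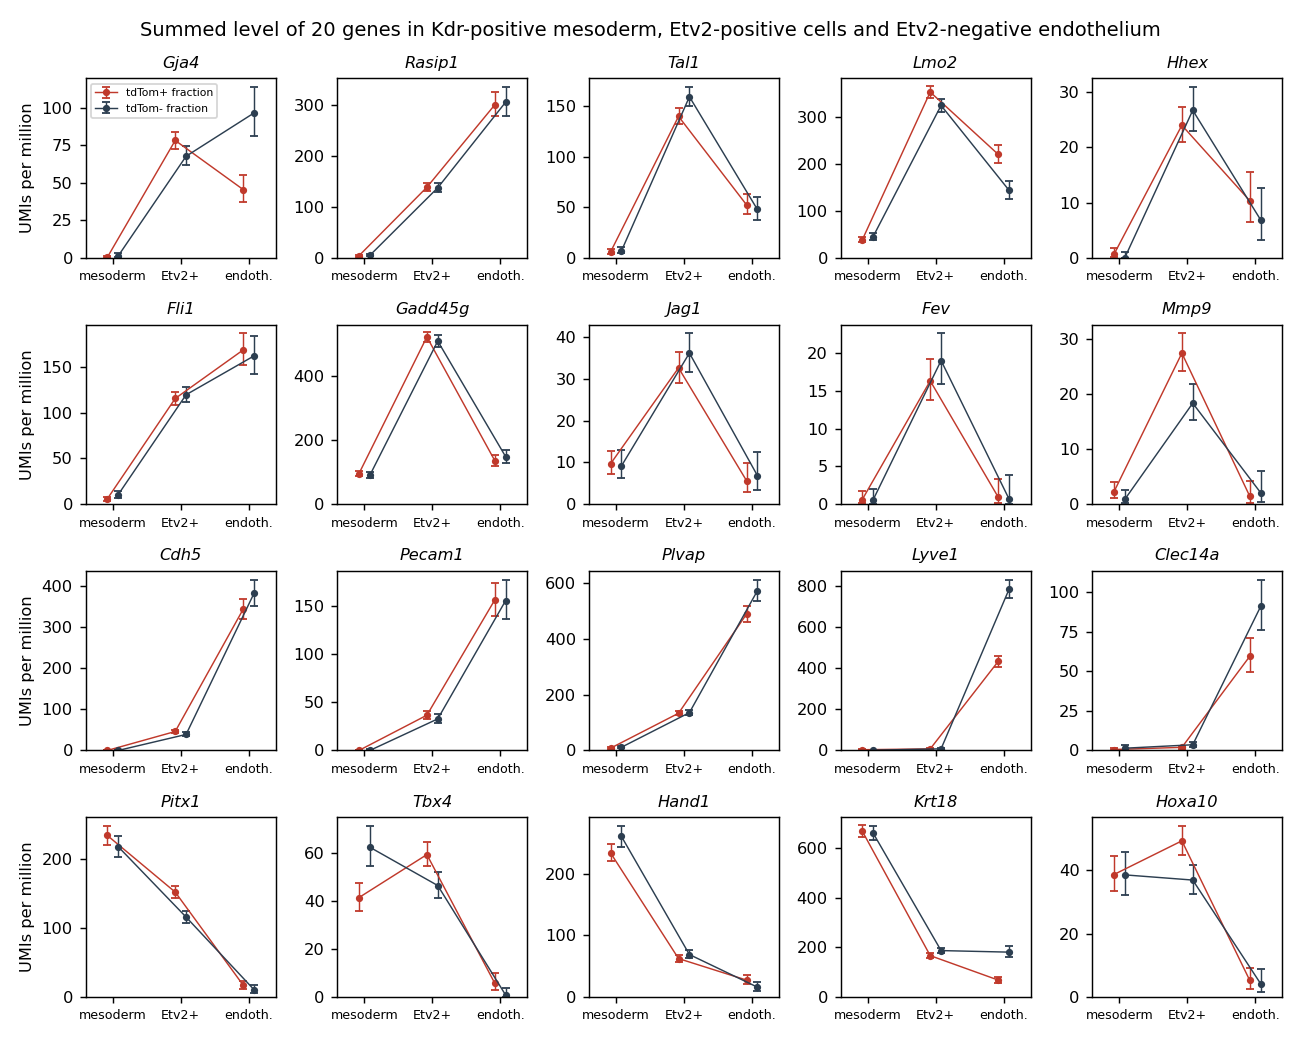
Summed level of 20 genes (vertical axes, CPM, from 0) in Kdr-positive mesoderm, Etv2-positive cells and Etv2-negative endothelium, with tdTom+ in red, tdTom- in blue and bars for exact 95% Poisson intervals. *Tal1*, *Lmo2*, *Hhex*, *Gadd45g*, *Jag1*, *Fev* and *Mmp9* peak in the Etv2-positive cells, *Cdh5* to *Clec14a* in the endothelium, and *Pitx1* and *Hand1* are highest in the mesoderm, where *Cdh5* and *Pecam1* are 0 by definition.

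Several transcription factors of the haemato-endothelial programme stood above the mesoderm in members. *Tal1*, the basic helix-loop-helix factor that starts the blood programme, stood at 140.2 CPM (133 to 148) and 159.6 (150.2 to 169.5) in members, 5.84 and 6.85 in mesoderm, and 52.5 and 47.9 in endothelium. Its partner *Lmo2*, a bridging protein of the same complex, stood at 353 and 325 in members, 38.0 and 45.1 in mesoderm, and 220.3 and 144 in endothelium. *Hhex*, a homeobox factor, stood at 24.0 and 26.7 in members, 10.3 and 6.85 in endothelium, and 0.604 and 0 in mesoderm. For these 3 genes the members held the highest level in both fractions. *Fli1*, an ETS factor that maintains endothelial identity, followed another order, with 116 and 119.7 in members, 5.64 and 10.3 in mesoderm, and 169 and 162 in endothelium. *Sox17*, known from arterial endothelium, likewise stood at 72.2 and 74.0 in members and 123 and 107 in endothelium.

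Over the whole list of haemato-endothelial transcription factors, 14 of 21 measured genes were higher in members than in mesoderm and 1 was lower, with a median log2 fold of 2.16 and 3.02. Of all 7288 genes tested against the mesoderm, 2.72% were higher and 1.96% lower, with a median of -0.04 and -0.03. Against endothelium 2 of the 21 factors were higher (*Tal1* and *Hhex*) and 5 lower (*Erg*, *Klf2*, *Mef2c*, *Sox18* and *Zfp711*). Of the 6713 genes tested there, 2.58% were higher and 4.74% lower, with a median of 0.08 and 0.06. These 173 and 318 genes became 26 and 112 when only members with a *Cdh5* UMI were compared, and the 318 became 185 against endothelium with 0 *Lyve1* UMIs.

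The VEGF receptor *Flt1* and several surface genes of vessels stood below the endothelium and above the mesoderm, though not every gene of these lists did. *Flt1*, the VEGF receptor that acts mainly as a decoy, stood at 55.6 and 53.3 CPM in members, 175 and 176 in endothelium, and 2.62 and 5.14 in mesoderm. *Tek*, the angiopoietin receptor, stood at 37.4 and 35.1 in members and 100.3 and 111 in endothelium. Of 12 measured genes of the VEGF and angiopoietin pathway, 5 were lower than in endothelium (*Flt1*, *Tek*, *Tie1*, *Ptprb* and *Plxnd1*) and none higher, while 6 were higher and 2 lower than in mesoderm. *Cdh5* stood at 46.0 (41.7 to 50.6) and 38.86 (34.3 to 43.9) in members, and in the endothelium it was part of the definition. *Pecam1* stood at 36.5 and 32.7 in members and 156 and 155 in endothelium. *Plvap*, a component of the diaphragms of fenestrated vessels, stood at 133 and 135 in members, 488 and 571 in endothelium, and 8.25 and 11.4 in mesoderm. *Cldn5*, which encodes a tight-junction protein, stood at 129 and 91.2, against 433 and 424 in endothelium. *Egfl7*, a secreted endothelial protein, was close in both groups, with 140.5 and 153 in members and 158 and 155 in endothelium.

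Of the 20 junction and surface genes measured against endothelium, 18 were lower and none higher, with a median log2 fold of -2.21 and -2.31. Against mesoderm 12 of 13 were higher, with a median of 4.18 and 3.57, and *Cdh5* and *Pecam1* were 0 there by definition. Both groups were defined on genes of this list and the members were not, so the place of the summed members between them follows in part from the definitions. Within the members, 12 of 13 measured genes of the list were higher in cells with a *Cdh5* UMI than in cells with none, against 2.52% of all genes tested, and *Cdh5* itself is among the 12 by definition.

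Of all genes tested, *Lyve1*, the hyaluronan receptor known from yolk sac and lymphatic endothelium, had the largest fold below the endothelium. It stood at 7.63 and 8.10 CPM in members and at 434 and 785 in the endothelium, where 51.2% and 50% of cells held a UMI against 6.39% and 4.49% of members. The next 10 genes were *Mrc1*, *Clec14a*, *Npl*, *Ptrf*, *Pcdh17*, *Klhl4*, *Selenop*, *Igf1*, *Gpr182* and *Fmo1*. *Mrc1*, the mannose receptor of yolk sac endothelium and macrophages, stood at 2.07 and 1.65 against 63.8 and 81.5. *Clec14a*, an endothelial lectin, stood at 1.96 and 3.60 against 59.5 and 91.1. *Igf1*, a growth factor, stood at 13.4 and 14.6 against 195 and 199.

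Matrix genes were mixed, with the larger differences from the endothelium. *Vim*, the mesenchymal intermediate filament, stood at 870.3 and 819 CPM in members, 3096 and 2788 in endothelium, and 532 and 594 in mesoderm. *Sparc*, a matrix glycoprotein, stood at 308 and 296 in members and 1497 and 1540.4 in endothelium. *Col4a1*, a chain of the basement-membrane collagen, stood at 142 and 151 in members and 411 and 495 in endothelium. In the extracellular matrix and adhesion list, 10 of 20 measured genes were lower than in endothelium and 1 (*Itga4*) was higher, while against mesoderm 4 of 20 were higher and none lower.

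In all, 10 genes were higher in members than in both groups, in both libraries: *Etv2*, which the rule set, with *Fev*, *Mmp9*, *Gadd45g*, *Jag1*, *Hopx*, *Tal1*, *Hhex*, *Cnksr3* and *Myc*. They were named after their values were seen, out of 6639 genes tested in both comparisons. *Fev*, another ETS factor and better known from serotonergic neurons, stood at 16.4 CPM (13.8 to 19.2) and 19.1 (15.9 to 22.7) in members, with a UMI in 24.4% and 25.1% of them. In endothelium *Fev* stood at 0.938 and 0.685, from so few UMIs that the log2 fold of 4.13 had an interval of 2.25 to 7.18 and that of 4.80 one of 2.29 to 10.11. *Gadd45g*, a stress and growth-arrest gene, stood at 520.0 (505 to 535) and 507 (490.1 to 524), against 135 and 147 in endothelium and 94.6 and 89.4 in mesoderm. *Mmp9*, a secreted metalloproteinase, stood at 27.4 and 18.3, against 1.41 and 2.05 in endothelium and 2.21 and 0.857 in mesoderm. *Hopx*, a small homeodomain protein, stood at 32.9 in both fractions of members, against 7.03 and 6.16 and against 5.03 and 9.99. *Myc*, a growth regulator, stood at 43.8 and 42.0, against 16.9 and 15.7 and against 20.3 and 15.7. The reverse case, lower than in both groups, held 4 genes (*Crip1*, *Lipa*, *Gnb4* and *Anxa2*).

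The promoters of *Etv2*, *Fev* and *Tal1* are shown as examples of transcription factors that stood above both neighbouring groups. For *Etv2* this was set by the definition of the groups. Each window runs from 250 bases before to 50 bases after a RefSeq transcription start on GRCm38.p6, written 5' to 3' on the strand of the gene, and capitals mark the GATA letters AGATAA or their reverse complement TTATCT. *Etv2* lies at chr7:30635803-30636102 on the minus strand, *Fev* at chr1:74885359-74885658 on the minus strand, and this start of *Tal1* at chr4:115056176-115056475 on the plus strand.
Etv2: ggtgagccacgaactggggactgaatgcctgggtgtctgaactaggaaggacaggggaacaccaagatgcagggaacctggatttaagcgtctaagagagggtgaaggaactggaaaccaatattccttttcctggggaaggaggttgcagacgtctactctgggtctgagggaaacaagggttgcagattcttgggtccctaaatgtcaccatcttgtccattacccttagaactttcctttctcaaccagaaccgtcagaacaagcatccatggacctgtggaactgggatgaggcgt
Fev: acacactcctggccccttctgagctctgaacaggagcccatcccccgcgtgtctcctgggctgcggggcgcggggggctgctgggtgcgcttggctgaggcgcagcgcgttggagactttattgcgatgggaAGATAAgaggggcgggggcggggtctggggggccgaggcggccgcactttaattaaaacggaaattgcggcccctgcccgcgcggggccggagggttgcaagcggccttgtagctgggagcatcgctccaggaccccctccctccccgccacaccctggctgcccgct
Tal1: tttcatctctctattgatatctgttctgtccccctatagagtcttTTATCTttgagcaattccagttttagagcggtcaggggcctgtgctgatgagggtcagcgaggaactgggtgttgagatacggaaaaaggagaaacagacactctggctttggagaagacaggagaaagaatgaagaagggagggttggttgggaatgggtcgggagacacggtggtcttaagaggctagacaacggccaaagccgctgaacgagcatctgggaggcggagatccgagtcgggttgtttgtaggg
Windows were sought for 13 genes, of which 11 matched with 13 windows, and *Myc* and *Mmp9* had no entry. The ETS letters CCGGAAG were in 0 of the 13 windows on either strand, and in 8.86% of 32851 mouse promoter windows of the same length. The GATA letters were in 2 of the 13 windows, those of *Fev* and of *Tal1* printed here, and in 11.2% of all windows. The windows not printed held neither motif, among them those of *Hhex* and *Hopx*, also above both groups, and the other start of *Tal1*. A match in these letters is a description of sequence and not a measured site.

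In the Notch list *Jag1*, a ligand, was the only gene of 8 measured that was called against endothelium, where 2.58% of all genes were higher and 4.74% lower. It stood at 32.6 CPM (29 to 36.5) and 36.2 (31.7 to 41.0) in members, 5.63 and 6.85 in endothelium, and 9.66 and 9.14 in mesoderm. *Dll4*, the ligand of arterial endothelium, had the opposite order, with 6.22 and 4.05 in members and 46.9 and 38.3 in endothelium, but too few UMIs in tdTom- to be among the 8. The receptor *Notch1* stood at 55.2 and 47.6 and the target *Hes1* at 41.1 and 36.6. In the BMP and SMAD list, 1 of 12 measured genes (*Msx1*) was higher than in endothelium and none lower. With 1 call in 8 or in 12 genes, neither list can be set apart from the shares over all genes. *Id1*, a BMP target, stood at 274 and 278 in members, 178 and 214 in endothelium, and 288 and 282 in mesoderm. The ligand *Bmp2* stood at 63.8 and 51.0 and *Bmp4* at 35.0 and 38.6.

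Members held transcripts of posterior and extraembryonic mesoderm that were scarce in the endothelium. *Pitx1*, a homeobox factor of the hindlimb field and posterior mesoderm, stood at 151 CPM (144 to 159.7) and 115 (107 to 124) in members, 16.9 and 10.3 in endothelium, and 234 and 217 in mesoderm. *Tbx4*, a T-box factor known from the allantois and hindlimb, stood at 59.4 (54.6 to 64.6) and 46.5 (41.5 to 52.0) in members, 5.63 and 0.685 in endothelium, and 41.5 and 62.5 in mesoderm. *Hoxa10* stood at 49.3 and 36.9, against 5.16 and 4.11 in endothelium and 38.6 and 38.5 in mesoderm. For *Pitx1*, *Tbx4* and *Hoxa10* members and mesoderm were less than 2-fold apart in both libraries. Neural cells held 14.1 and 17.8 of *Pitx1* and 2.52 and 2.34 of *Tbx4*.

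Other mesodermal genes stood below the mesoderm by varying amounts. *Hand1*, a factor of lateral and extraembryonic mesoderm, stood at 62.2 and 68.7 CPM in members, 234 and 261 in mesoderm, and 27.2 and 15.7 in endothelium. *Postn*, which encodes the matrix protein periostin, stood at 1.42 and 2.10 against 36.8 and 64.5 in mesoderm. *Krt18*, a keratin, stood at 166 and 186 against 668 and 659.9. *Cdx2* and *Cdx4*, caudal factors of the posterior embryo, stood at 94.0 and 99.5 and at 100.9 and 113 in members, against 165 and 155 and against 214 and 248 in mesoderm, under 2-fold for *Cdx2*. Of 26 measured genes of the lateral plate and extraembryonic mesoderm list 18 were lower than in mesoderm and none higher, with a median log2 fold of -1.50 and -1.53, and of 19 measured against endothelium 9 were higher and none lower. Of the Hox list, 9 of 16 were higher and 1 lower (*Hoxb5*) than in endothelium, and 4 of 19 were lower than in mesoderm. The S phase and G2/M lists held 22 measured genes each, and none was 2-fold apart from either group.

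Of the 6639 genes tested against both groups, 70 were below endothelium and above mesoderm, and 12 were above endothelium and below mesoderm. Both classes were counted over sums of cells, and the spread within the members was examined by counting cells. A UMI of *Cdh5* or *Pecam1* was found in 185 tdTom+ members (42.2%, 37.6 to 47.0) and 118 tdTom- members (35.3%, 30.2 to 40.7), against 2.99% and 1.90% of neural cells. A UMI of *Tbx4* or *Pitx1* was found in 263 (60%, 55.3 to 64.7) and 178 members (53.3%, 47.8 to 58.7), against 59.2% and 55.5% of Kdr-positive mesoderm cells and 9.19% and 7.97% of neural cells. Both pairs were found together in 102 (23.3%) and 63 (18.9%) members, the endothelial pair alone in 18.9% and 16.5%, the mesodermal pair alone in 36.8% and 34.4%, and neither in 21% and 30.2%. With cells thinned to 5000 UMIs both pairs were found together in 7.59% and 3.31% of members, the endothelial pair in 26.0% and 19%, and the mesodermal pair in 41.4% and 35.8%, so these shares move with depth. Etv2-negative endothelium, which was defined by *Cdh5*, held both pairs in 12.2% and 8.70% of cells. Thinned, it held them in 2.52% and 4.40%, below the members in tdTom+ but above them in tdTom-. Whether the pairs go together in members beyond their single shares was not tested.

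Members also differed in how much *Etv2* they held. In the tdTom+ fraction 69 cells held 2 UMIs, 86 held 3 to 5 and 283 held 6 or more, and in the tdTom- fraction 44, 58 and 232. Median depth over these classes was 16799, 19135.5 and 20152 UMIs in tdTom+ and 20013.5, 17101.5 and 18822 in tdTom-, so depth did not have a common order. *Tal1* stood at 32.9, 80.2 and 181 CPM over the tdTom+ classes and 52.9, 74.1 and 201 over the tdTom- classes. *Fev* stood at 1.57, 6.00 and 22.6 and at 1.08, 4.57 and 26.0. *Gadd45g* stood at 221, 395 and 621 and at 176, 266 and 629.9. In these 3 genes each class stood above the one before it in both fractions. The classes are cut on *Etv2*, which the rule used, and the lowest lies at a limit that some neural cells also reach, so the order is a description only. *Lmo2* had it too, with 156, 234 and 431 and with 152, 225 and 382. *Hhex* did not keep it, with 3.13, 14.2 and 31.4 in tdTom+ but 12.9, 4.57 and 34.7 in tdTom- members.

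Of 13 measured junction and surface genes, 5 were at least 2-fold lower in the cells with 6 or more *Etv2* UMIs than in those with 2 and none was higher. *Cdh5* stood at 95.6, 69.3 and 28.6 CPM over the tdTom+ classes and at 87.4, 61.3 and 23.9 over the tdTom- classes. *Cd34*, which encodes a sialomucin of endothelium and blood stem cells, stood at 107, 70.9 and 16.7 and at 84.1, 43.9 and 25. The ligand *Bmp4* stood at 72.9, 42.0 and 24.9 and at 71.2, 50.3 and 29.3. *Gja4*, which is in the label's own markers, had the opposite order, with 47.8, 60 and 90.1 and with 32.4, 54.0 and 77.9. *Rasip1* had no such order, with 149.7, 178 and 124 and with 131, 162 and 133. In all, 23 of 5622 genes tested (0.409%) were at least 2-fold higher in the cells with 6 or more *Etv2* UMIs than in those with 2, in both libraries, and 24 (0.427%) were lower. These genes and classes were chosen after their values were seen.

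**Figure D2:**
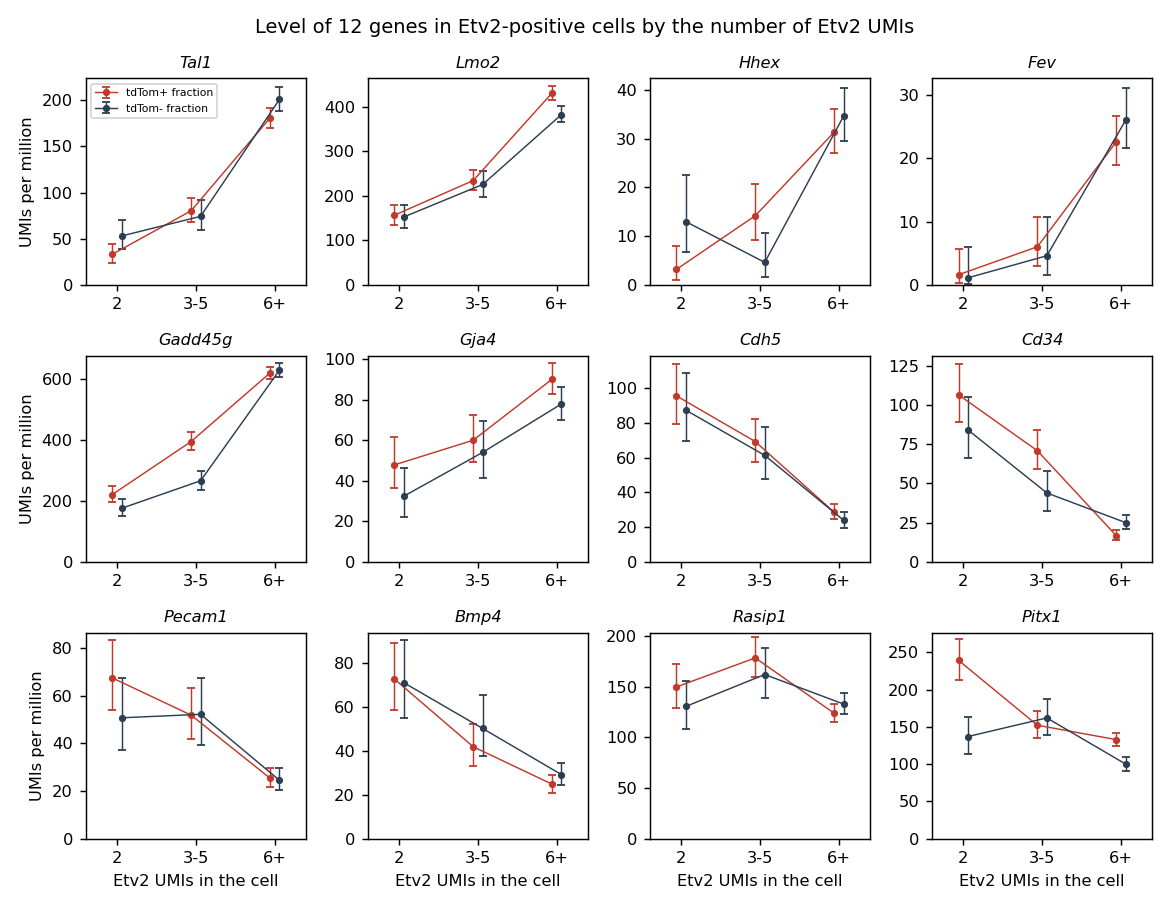
Level of 12 genes (vertical axes, CPM, from 0) in members with 2, 3 to 5, or 6 and more *Etv2* UMIs (horizontal axes), tdTom+ in red and tdTom- in blue, with exact 95% Poisson intervals. *Tal1*, *Lmo2*, *Fev*, *Gadd45g* and *Gja4* are highest in the cells with the most *Etv2*, whereas *Cdh5*, *Cd34*, *Pecam1* and *Bmp4* are lowest there.

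Members were also split by *Cdh5*. At least 1 *Cdh5* UMI was found in 149 (34.0%) and 90 (26.9%) members. Against the 289 and 244 members with none, 155 of 6139 genes (2.52%) were higher and 114 (1.86%) lower. *Pecam1* stood at 90.8 and 91.8 CPM against 8.89 and 9.79, *Icam2*, an adhesion molecule, at 115 and 141 against 17.5 and 15.6, and *Ctla2a*, a protease inhibitor, at 146 and 136 against 11.5 and 9.37. *Rasip1* stood at 269 and 313 against 71.9 and 69.3, and *Fli1* at 199 and 202 against 72.9 and 87.9. Lower in the cells with *Cdh5* were *Cdx4*, with 17.4 and 29.5 against 143 and 145, *Hand1*, with 22.6 and 16.6 against 82.3 and 88.9, and *Pitx1*, with 62.7 and 51.6 against 197 and 140.1. *Tal1* was close on both sides, with 120.2 and 157 against 150.3 and 161, and *Fev* likewise with 13.6 and 20.4 against 17.8 and 18.5. *Etv2* itself stood at 498 and 649 against 1036 and 1064, which the rule bounds from below only. These genes were also chosen after their values were seen.

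The unspliced share of a gene's UMIs, which the rule did not use, had no common order over endothelial genes. For *Cdh5*, 31.0% of UMIs in tdTom+ members (27.4 to 34.9) and 28.5% in tdTom- members (23.9 to 33.4) were unspliced, against 19.6% (17 to 22.3) and 18.2% (15.4 to 21.3) in endothelium, which was however defined by spliced *Cdh5*. *Pecam1*, on which the endothelium was not defined, had 42.5% (38.5 to 46.7) and 41.4% (36.3 to 46.6) in members and 32.9% (28.7 to 37.2) and 34.2% (29.2 to 39.5) in endothelium, so that the intervals overlapped in the tdTom- fraction alone. *Tal1* had the opposite order, with 16.1% and 16.8% in members and 26.3% (19.5 to 34.1) and 28.6% (19.9 to 38.6) in endothelium. The share over all genes was 13.1% and 13.9% in members and 14.1% and 14.7% in endothelium. *Flt1*, with 72.9% and 72.7% against 69.4% and 69.4%, and *Fli1*, with 68.5% and 70.7% against 67.4% and 70.3%, were close in both groups. *Egfl7* had 32.0% and 30.2% in members and 29.5% and 35.2% in endothelium, in opposite orders in the libraries, and *Kdr* had 10.2% and 9.72% in members and 12.3% and 12.8% in endothelium. *Etv2* had 0.647% and 0.488% unspliced in members, which were chosen on spliced *Etv2*, and 2.30% (0.280 to 8.06) and 3.14% (1.16 to 6.71) in neural cells.

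Blood genes had no common order. *Gata2*, a factor of blood progenitors and endothelium, was found in 46.8% and 44.0% of members, 33.3% and 34.8% of endothelium cells and 4.70% and 0.832% of neural cells. *Runx1*, the factor of the endothelial-to-blood transition, stood at 3.38 and 3.30 CPM, against 4.93 and 1.32 in neural cells. *Itga2b*, the CD41 integrin of early blood progenitors, stood at 8.07 and 10.1 in members, 41.3 and 66.4 in endothelium, and 0.805 and 1.98 in neural cells. *Kit*, the receptor for stem cell factor, stood at 45.0 and 29.4, against 52.0 and 26.7 in endothelium. Of 6 measured genes of the blood progenitor list, 2 were higher than in endothelium (*Cd44* and *Mllt3*) and 2 lower (*Cbfa2t3* and *Itga2b*), and the list summed to 197 and 195 CPM in members. The 12 genes of the myeloid list summed to 17.6 and 17.1 CPM in members and 17.2 and 10.8 in neural cells, with *Cx3cr1* and *Lyz2* at 0 in tdTom+ and none at 0 in tdTom- members. The leukocyte gene *Ptprc*, of the blood progenitor list, was at 0 in both fractions, which by the limit of 3 counts allows a UMI in up to 0.685% and 0.898% of members.

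The comparison of tdTom+ with tdTom- members sets Gata1- cells against host cells. The fractions also differ in origin and culture history, which cannot be told apart from *Gata1* here. Of 8114 genes with at least 100 UMIs over both fractions, 25 (0.308%) were at least 2-fold higher in tdTom+ and 44 (0.542%) at least 2-fold lower. The 25 became 14 without the cells called doublets and 10 when cells with at least 20 cardiac UMIs were left out as well. The median log2 fold was -0.03, and 96.3% of genes were within 1.5-fold. *Tal1*, *Lmo2*, *Gja4*, *Rasip1* and *Cdh5* were among them, while *Klf2* and *Kit*, also named above, were not. *Tal1* was 0.19 lower on the log2 scale in tdTom+ (interval -0.31 to -0.07), *Lmo2* 0.12 higher (0.04 to 0.20), *Gja4* 0.21 higher (0.04 to 0.38), *Rasip1* at 0.01 (-0.11 to 0.14) and *Cdh5* at 0.24 (0.02 to 0.47).

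**Figure D3:**
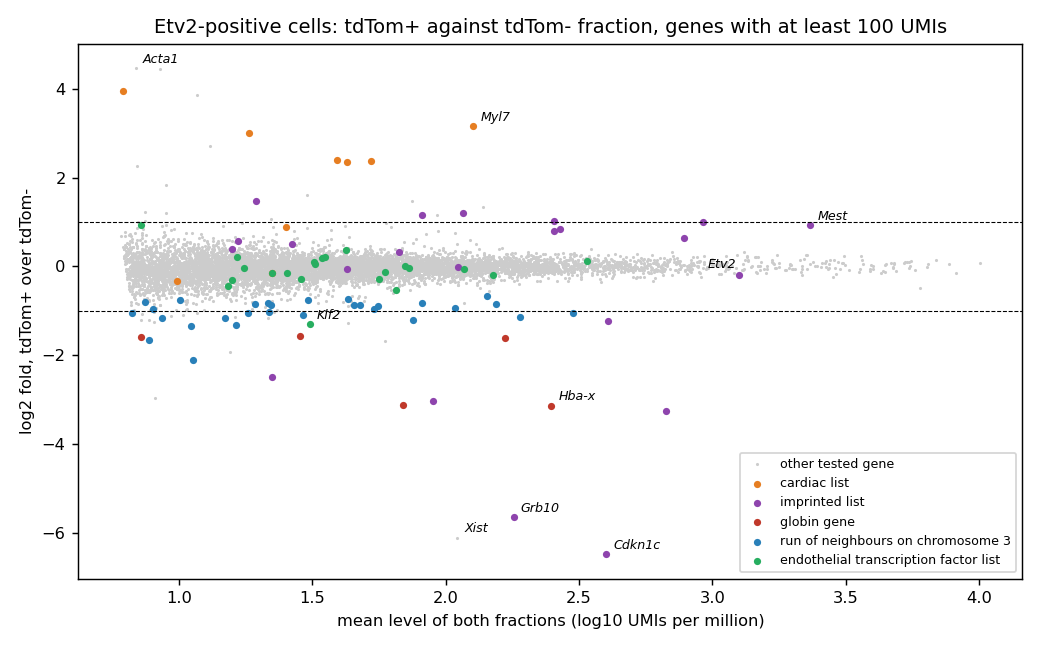
Log2 fold of tdTom+ over tdTom- members (vertical axis) against the mean level of both fractions (horizontal axis, log10 CPM) for 8114 genes, 1 point each, with dashed lines at 2-fold. Muscle genes such as *Acta1* (4.46) hold the upper extreme, *Cdkn1c* (-6.48) and *Xist* (-6.10) the lower, globin genes and the chromosome 3 neighbours lie below 0, and of the endothelial factors only *Klf2* lies past a line.

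Counted at 20 or more UMIs, where 3.13% of 10900 genes were 2-fold apart in either direction, no gene passed 2-fold among 16 measured genes of the VEGF and angiopoietin pathway, 21 junction and surface genes, 17 Notch, 14 BMP, 13 blood progenitor, 24 matrix, 22 S phase and 22 G2/M genes. Of 24 haemato-endothelial transcription factors 1, *Klf2*, passed. In the lateral plate list of 27, *Acta2*, smooth muscle actin, was higher in tdTom+ with 110.3 CPM against 39.9, and *Col1a2* lower with 14.9 against 30.6. In the Hox list of 30, *Hoxc11* was higher, with 4.80 against 2.25. Neither higher call held without the cells called doublets, where the log2 folds were 0.58 for *Acta2* and 0.96 for *Hoxc11*. Outside these lists, genes lower in tdTom+ numbered 4 of 10 in the neural list (median log2 fold -0.96), 2 of 3 in the megakaryocyte, 2 of 9 in the somite, 1 of 5 in the myeloid and 1 of 7 in the yolk sac endoderm list, and none of these lists had a gene that was higher.

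*Klf2* encodes a zinc-finger factor that endothelial cells are known to make under flow. It stood at 17.9 CPM in tdTom+ members (15.3 to 20.8) and 44.1 in tdTom- members (39.2 to 49.4), with a UMI in 20.3% and 26.9% of cells. The log2 fold was -1.30 (-1.59 to -1.02). In members with a *Cdh5* UMI it stood at 33.3 and 109, a log2 fold of -1.71, and in the larger number with none at 10.0 and 18.9, which is under 2-fold. In Etv2-negative endothelium *Klf2* was close in both fractions, with 103 and 117, a log2 fold of -0.18, and over all other cells it was 0.52 higher in tdTom+ on the log2 scale. The difference between these folds was not tested. Whether the difference exceeds the spread between embryos or libraries cannot be told from 1 library per fraction.

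The globins and red-cell genes lower in tdTom+ members were lower in tdTom+ neural cells too. *Hba-x* stood at 50.7 and 446 CPM in members and 164 and 1781 in neural cells, so the log2 fold was -3.14 in the former and -3.44 in the latter. *Hbb-bh1* stood at 82.7 and 251 in members and 367 and 899 in neural cells, and *Hbb-y* at 14.3 and 124 and at 43.1 and 329. For all 3, members held less than neural cells of their own library. Globin was part of the rule. Of the 14 measured genes of the erythroid list 9 were at least 2-fold lower in tdTom+, and the median was -1.33. All 9 were lower in neural cells, 8 of them by 2-fold, with log2 folds from -5.37 to -0.79 there and from -4.37 to -1.04 in members. *Car2*, carbonic anhydrase, was not among them, with -0.36 in members and 0.26 in neural cells. The whole erythroid list summed to 107 and 208 CPM in members and 255 and 496 in neural cells.

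Among genes higher in tdTom+, cardiac muscle genes had the largest folds. Of 12 measured genes of the cardiac list 9 were at least 2-fold higher, with a median log2 fold of 2.38, and the list summed to 579 and 129.6 CPM in members, 942 and 147 in endothelium, 1658 and 3513 in mesoderm, and 212 and 125 in neural cells. *Myl7*, an atrial myosin light chain, stood at 228 and 25.5, a log2 fold of 3.16 (2.93 to 3.39). *Acta1* (4.46), *Ankrd1* (4.44), *Myh6* (3.95), *Myl3* (3.86), *Ttn* (3.01), *Tnnc1* (2.72) and *Tnnt2* (2.4), genes of the sarcomere and its stress response, had the other largest log2 folds. These UMIs sat in few cells. In the tdTom+ fraction 10 members with at least 20 cardiac UMIs held 4422 of 5309 (83.3%), and Scrublet called 5 of the 10 doublets. In the tdTom- fraction 5 members held 287 of 864 (33.2%), none called a doublet. The median member held 2 and 1. Without those cells, a choice made after seeing the data, 13 genes were higher and 43 lower of 8049, of which 11 and 42 were called with them too. *Myl7* then stood at a log2 fold of 0.50, *Acta1* at 0.89 and *Actc1*, cardiac actin, at 0.44, while *Ttn* turned to -1.43. *Myh6* at 1.89 and *Ankrd1* at 1.31 stayed past 2-fold. Several of these folds rest on few UMIs. Even with those cells kept, tdTom- members held 27 UMIs of *Ttn*, 5 each of *Myh6* and *Ankrd1*, and 4 of *Acta1*.

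**Figure D4:**
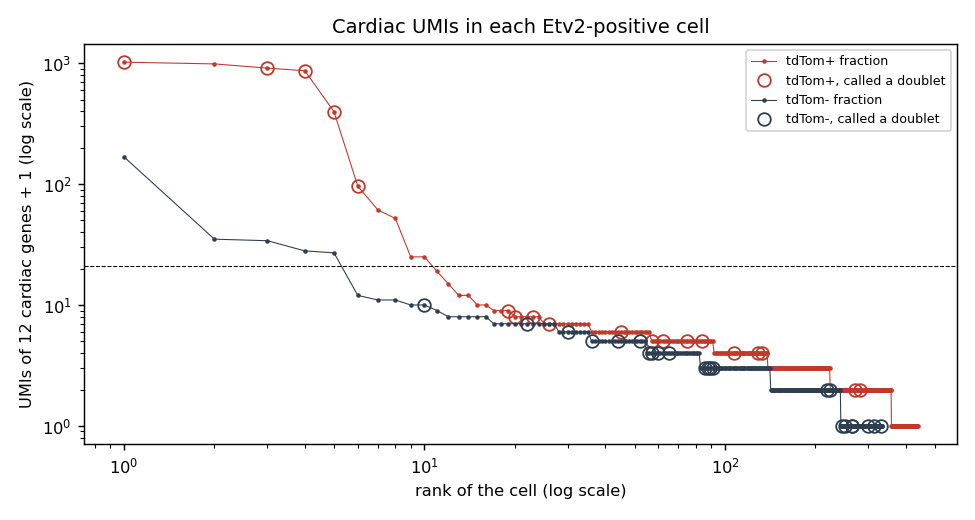
UMIs of the 12 cardiac genes plus 1 (vertical axis, log scale) in each member, ranked within its fraction (horizontal axis, log scale), with tdTom+ in red, tdTom- in blue and circles for cells called doublets. The 10 tdTom+ and 5 tdTom- cells above the dashed line have at least 20 such UMIs, and most of the others have only a few.

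Imprinted genes, expressed from a single parental copy, and *Xist*, the RNA of the inactive X chromosome, had the largest differences. *Cdkn1c* stood at 8.83 and 788 CPM, a log2 fold of -6.48, and over all other cells the fold was -6.14. *Grb10* had a log2 fold of -5.64, *Phlda2* one of -3.26 and *Igf2r* one of -3.03. *Peg10* was 1.03 higher on the log2 scale, *Peg3* 1.00 and *Mest* 0.93. *Xist* stood at 3.16 and 218, beside the male line of the tdTom+ cells and host embryos of unstated sex. Of 29 measured imprinted genes, 5 were at least 2-fold higher in tdTom+ and 10 lower. The injected and host cells differ in origin and in culture history as well as in *Gata1*, and these cannot be told apart here.

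Among the other genes lower in tdTom+ members, 13 of the 44 were neighbours on chromosome 3. In a run of 29 consecutive tested genes from *Zmat3* to *Sclt1* (chr3:32334792-41742514, GRCm38, 9.41 Mb), every gene had a log2 fold of at most -0.5 in members, with a median of -0.95 and a range from -2.11 to -0.65. Summed, the run stood at 1065 CPM in tdTom+ and 2065 in tdTom- members, a log2 fold of -0.96 (-0.99 to -0.92). The middle 50% of tdTom+ members lay between 885 and 1211 CPM, and of tdTom- members between 1819.6 and 2274, so that these ranges did not overlap. The next longest run on any chromosome held 3 genes. The run was chosen after its values were seen, and the 358 other genes tested on chromosome 3 had a median of -0.03, of which 1 was 2-fold lower.

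Among the genes of the run, *Actl6a*, a subunit of chromatin remodelling complexes, stood at 118 and 261 CPM (log2 fold -1.14). *Ndufb5*, a subunit of respiratory complex I, stood at 197 and 405 (-1.04), and *Ccna2*, which encodes cyclin A2, at 111 and 199 (-0.85). *Pik3ca*, the catalytic subunit of a lipid kinase, had a log2 fold of -1.10, and *Fxr1*, an RNA-binding protein, one of -0.65. *Sox2*, which lies in the run and is known from neural and pluripotent cells, had the lowest value, -2.11, with 4.25 against 18.3. The neighbours outside the run were close to 0, *Skil* on one side at -0.16 and *Pabpc4l* on the other at -0.06.

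Most genes of the run were lower in other tdTom+ cells too. The summed log2 fold was -1.0 in Etv2-negative endothelium, -0.97 in Kdr-positive mesoderm, -0.92 in neural cells and -0.96 over all other cells. All 29 genes were lower in mesoderm, in neural cells and over all other cells, and 28 of 29 in endothelium, where the highest stood at 0.24. DNA copy number was not measured, and whether the tdTom+ or the tdTom- cells depart from the usual level cannot be told apart.

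**Figure D5:**
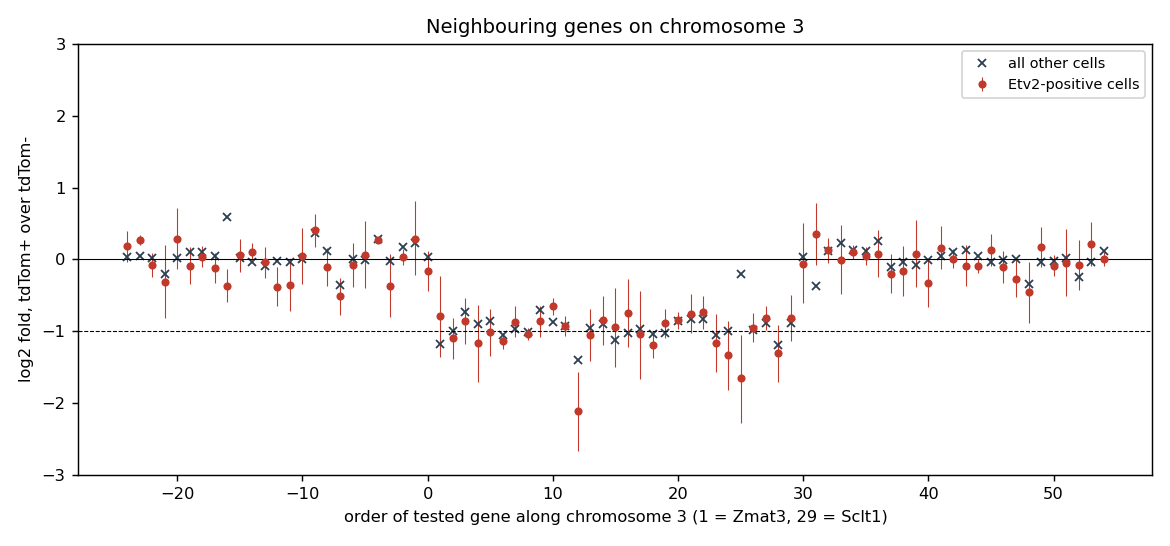
Log2 fold of tdTom+ over tdTom- (vertical axis) for tested genes in their order along chromosome 3 (horizontal axis, 1 is *Zmat3* and 29 is *Sclt1*), with red points and exact 95% intervals for members and crosses for all other cells. Most genes at positions 1 to 29 lie near -1 in both, *Sox2* lies lower, and the genes on either side lie near 0.

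Of the genes called between fractions, 6 more are given here, of which *Pyy*, *Clec1b* and *Crabp2* were chosen after their values were seen. *Cited4*, a coactivator that is also among the lower genes of the erythroid list counted above, stood at 1.85 and 14.4 CPM in tdTom+ and tdTom- members (log2 fold -2.96). It was below the 6.84 and 25.5 of neural cells, where the log2 fold was -1.90. *H13*, a signal peptide peptidase that lies at an imprinted locus, had -1.67 in members and -1.39 over all other cells, and *Akr1e1*, an aldo-keto reductase, -1.93 and -1.85. For *Akr1e1* neural cells held more than members too, with 8.55 and 38.1 against 6.44 and 24.6. *Pyy*, which encodes peptide YY, stood at 45.7 and 15.0, 1.61 higher on the log2 scale in members and 1.62 over all other cells. In Etv2-negative endothelium the log2 fold was -1.46 (-2.81 to -0.22), from low levels of 4.22 and 11.6 CPM. In neural cells it was -1.32 (-2.21 to -0.52), from 1.61 and 4.02 CPM. *Clec1b*, a lectin of megakaryocytes and platelets, stood at 13.4 and 29.9 in members (-1.15). In Etv2-negative endothelium *Clec1b* was far higher and close in both fractions, with 107 and 95.2, a log2 fold of 0.17 (-0.14 to 0.48). Over all other cells, endothelium included, it stood at 3.16 and 1.95, which is 0.69 higher in tdTom+. *Crabp2*, a retinoic acid binding protein, stood at 25.3 and 60.6 (-1.26), but at a log2 fold of -0.52 without the cells called doublets, against -0.42 over all other cells. These differences between members and other cells were not tested.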

How the data were processed

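Single-cell suspensions of 6 pooled chimeric embryos were sorted by tdTomato and profiled with droplet 3' chemistry, 1 library per fraction. Per the labels and the study's methods, the authors aligned reads to mm10 with Cell Ranger 3.0.2 (submitters' processing notes), called cells with emptyDrops, removed low-quality barcodes with a mixture-model filter and counted spliced and unspliced molecules with velocyto. The deposited tables hold whole-number UMI counts for 29453 genes (0 values were not whole), and the mitochondrial percent of each cell is the authors' own value. The cell metrics list 18239 cells, of which 6 were not in the count tables. No other column of sample values was present (0 columns). The authors' cell types and doublet calls were not used here. The 8981 tdTom+ and 9252 tdTom- cells used are more than the paper reports as passing its quality control. Some of them were thus left out of the paper's own set. Cells are rows and genes columns in the tables, and each cell's row was mapped to a fraction by the start of its cell name, which is the barcode label of that sample.

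UMIs were summed per group and library and scaled to 1000000 (CPM). Because each fraction is 1 library, nothing was tested: sums have exact Poisson intervals, shares exact Clopper-Pearson intervals and folds exact conditional intervals, at 95%, for counting error only. Genes were compared from 100 UMIs up (20 within lists) and called past 2-fold. Doublets were called in each library with Scrublet in scanpy 1.11.5 (expected rate 6%, 30 components, fixed seed) and kept. Tools were Python 3.11.15, numpy 2.4.6, scipy 1.17.1, pandas 2.3.3 and matplotlib 3.10.9. The fold and interval code was tested on simulated data.

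The members, the 25 gene lists (431 genes, of which 2 names were not in the tables) and the comparison groups were chosen with earlier results of these data known. Genes named were the 4 markers, *Spi1*, *Gata1* and the globins. In each list with 20 UMIs or more per gene, the 4 with the highest level and those 2-fold apart between fractions could be named, as could the 8 per direction with the largest fold between fractions and the 10 per direction furthest from the endothelium. Other genes given, such as *Tek*, *Pecam1*, *Dll4*, *Hand1* and *Runx1*, fall outside these rules. Only some of them are said to be chosen after their values were seen, and the rest may have been too. Alternatives changed the rule's limits, the UMI minimum, the scaling, doublets, depth, a subtraction of the neural level and the endothelial group. Promoters are RefSeq windows on GRCm38.p6.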

Additional observations from a re-analysis of the deposited data

Results flagged for a closer look

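In 2 named genes the members lay on opposite sides of the Etv2-negative endothelium in the 2 libraries, each by at least 2-fold. *Actc1* had a log2 fold of -1.11 in tdTom+ and 1.17 in tdTom-, and *Krt19*, a keratin, 2.13 and -2.09. In 6 of the named genes, all cardiac or muscle genes, the tdTom+ over tdTom- difference had opposite signs in members and in Kdr-positive mesoderm, again each by at least 2-fold. The log2 folds in members and mesoderm were 4.46 and -1.25 for *Acta1*, 4.44 and -1.17 for *Ankrd1*, and 3.16 and -1.16 for *Myl7*. They were 3.01 and -1.26 for *Ttn*, 2.37 and -1.23 for *Actc1*, and 2.34 and -1.05 for *Myl4*. *Fbxl22*, which was called but not named, had 2.27 and -1.04. The members' values for these genes rest mostly on the 10 tdTom+ members with at least 20 cardiac UMIs. None of these differences was tested, since each fraction is 1 library.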

How the results depend on the processing

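No paired analysis was possible because each fraction is 1 library. The tdTom+ share of members was 6.50% at 1 or more *Etv2* UMIs, 4.11% at 3 or more, 5.48% and 4.43% at *Kdr* limits of 1 and 3, and 2.03% with cells thinned to 5000 UMIs. The tdTom- share was 4.52%, 3.13% and, thinned, 1.82%. Genes 2-fold higher in tdTom+ (25) numbered 49 from 50 UMIs, 16 from 200, 14 without doublets, 15 thinned, 13 without cells of at least 20 cardiac UMIs and 10 without either, the last 2 settings chosen after seeing the data. Those lower (44) numbered 67, 27 and, thinned, 22. Subtracting the neural level, which sets genes at or below it to 1 CPM, gave 726 and 663. Against endothelium, 173 higher genes became 100 from 200 UMIs and 26 in members with a *Cdh5* UMI, and 318 lower genes became 185 against *Lyve1*-free cells, 195 from 200 UMIs and 112 in members with a *Cdh5* UMI. Log2 folds of the named genes that turned sign were *Ttn* (-1.43 without the cardiac-rich cells, as did *Fbxl22*, called higher but not named, at -0.43), *Hes5* (0.15 without doublets) and, in members with a *Cdh5* UMI, *Rab27b* (0.27), *Sfmbt2* (1.27), *Hoxc11* (-0.37) and the megakaryocyte list median (0.055). Their causes were not tested. Of 135 named genes, 134 kept their side of 2-fold with size factors, 130 with the mean of per-cell levels, 125 without doublets, 123 without the cardiac-rich cells and 98 with the neural level subtracted. The *Fev*, *Hhex* and *Tbx4* levels in endothelium rest on few UMIs, as do the *Ttn* and *Fbxl22* folds without the cardiac-rich cells.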
